A study of Mus musculus with 12 samples.

Results

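The genes described here are 34 named members of the unfolded protein response (UPR) and the integrated stress response, chosen by symbol from a fixed list, out of 24562 genes counted. All 34 were matched to a RefSeq transcript and all 34 passed the filter on low counts, which kept 12641 genes. RNA had been sequenced from macrophages of the peritoneal cavity of female mice on a chow or a high fat diet (HFD), after 0 h or 24 h with lipopolysaccharide (LPS), the cell wall component of Gram-negative bacteria that Toll-like receptor 4 detects. There were 12 libraries, 3 in each of 4 groups: chow 0 h (chow diet, no LPS time), chow 24 h (chow diet, LPS), HFD 0 h (high fat diet, no LPS time) and HFD 24 h (high fat diet, LPS). The sources used here do not give strain, genotype, age, the length of the diet or the LPS dose. The labels list no 24 h group free of LPS. An effect of LPS and an effect of time cannot be told apart, and the 24 h against 0 h difference is called the LPS change. Whether the 3 libraries of a group came from separate animals is not stated. The spread behind each p-value is the spread between these libraries, and it may be technical.

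As background, secreted and membrane proteins fold in the endoplasmic reticulum (ER), and 3 sensors in its membrane respond when unfolded protein builds up. IRE1 (Ern1) splices the Xbp1 message, ATF6 (Atf6) is cut to release a transcription factor, and PERK (Eif2ak3) phosphorylates the initiation factor eIF2. The first pair of arms raises chaperones, disulfide isomerases and the machinery of ER-associated degradation (ERAD), which pulls misfolded protein out of the ER. Phosphorylated eIF2 slows translation but favours translation of Atf4, whose protein raises genes of amino acid synthesis and transport. Other eIF2 kinases that sense amino acid shortage, haem or double-stranded RNA feed into the same step, which is why that branch is called the integrated stress response. In macrophages, IRE1 and XBP1 are also known to take part in signalling downstream of Toll-like receptors.

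The DNA elements through which these arms act are short and could be looked up in the promoters. RefSeq promoter windows of 300 bases (GRCm38.p6, most of each window upstream of the start) were found for 30 of the 34 members. Atf6, Eif4ebp1, Hyou1 and Manf had none. The ER stress element, bound by ATF6 and by spliced XBP1 with a CCAAT-binding factor, was searched on both strands as CCAATNNNNNNNNNCCACG. It stood in 8 of the 30 members (26.7%: Calr, Canx, Creld2, Dnajc3, Hsp90b1, Hspa5, Pdia6 and Syvn1), against 37 of 27025 genes with a window (0.137%). Most of the 8 are the lumen chaperones and isomerases described below. A few of them are shown because they share the element, in capitals, yet differed in whether they passed the test after LPS. In the lines below the element reads CCAAT to CCACG, or CGTGG to ATTGG where it lies on the other strand, and Hsp90b1 carries 2 copies.
Hspa5, chr2:34772010-34772058, plus strand: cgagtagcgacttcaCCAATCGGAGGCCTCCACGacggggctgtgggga
Hsp90b1, chr10:86705518-86705671, minus strand: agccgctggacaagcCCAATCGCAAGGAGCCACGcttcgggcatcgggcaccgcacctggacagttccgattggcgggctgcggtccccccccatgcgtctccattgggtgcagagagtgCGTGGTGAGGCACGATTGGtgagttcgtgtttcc
Calr, chr8:84847060-84847108, minus strand: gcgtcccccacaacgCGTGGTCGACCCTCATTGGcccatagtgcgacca
Creld2, chr15:88819505-88819553, plus strand: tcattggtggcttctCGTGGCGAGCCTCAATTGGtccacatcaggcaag
Pdia6, chr12:17266476-17266524, plus strand: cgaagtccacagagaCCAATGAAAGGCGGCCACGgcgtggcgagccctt
Canx, chr11:50325785-50325833, minus strand: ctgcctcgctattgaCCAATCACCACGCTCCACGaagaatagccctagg

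The element core through which ATF4 acts with C/EBP factors was searched on both strands as TGATGNAA. It stood in 6 of the 30 members (20%: Asns, Atf3, Chac1, Herpud1, Pck2 and Trib3), against 4.51% of all genes with a window. Of these, 4 with the core upstream of the start are shown in the same way, again because their LPS changes went in different directions.
Asns, chr6:7693210-7693247, minus strand: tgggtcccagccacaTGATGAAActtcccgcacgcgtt
Chac1, chr2:119351034-119351071, plus strand: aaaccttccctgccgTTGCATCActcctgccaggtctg
Atf3, chr1:191183421-191183458, minus strand: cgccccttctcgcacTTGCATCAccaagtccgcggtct
Herpud1, chr8:94386302-94386339, plus strand: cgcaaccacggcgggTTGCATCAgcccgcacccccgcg

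Of the other motifs searched, also on both strands, the ER stress element II (ATTGGNCCACG) stood in the window of 1 member, Herpud1 (0.0444% of all genes), and the cyclic AMP response element (TGACGTCA) in that of Ppp1r15a (2.03% of all genes). The UPR element core of XBP1 (TGACGTGG) stood in 0 of the 30, against 0.714% of all genes. The ER stress elements have CCAAT and CCACG in common, and the last pair of motifs begins with the same letters. These matches describe the letters in a window and do not show that a factor binds there.

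Library totals, with 1 transcript per gene, ran from 2360244 counts in HFD 0 h replicate 3 to 20688308, with 9135057 as the next lowest. Within groups, libraries correlated across genes with Spearman coefficients of 0.959 to 0.993. A tag of sequencing lane 8 is found in 4 labels, those of HFD 24 h replicate 1 and of the chow 24 h group, and in no others. LPS and this tag cannot be told apart within chow. Macrophage identity was clear: all 8 macrophage markers listed were detected, with Cd68 at 2294 to 3757 CPM (counts scaled to a common library size) over the 12 libraries and Csf1r at 814 to 1127 CPM. Markers of resident large peritoneal macrophages were low, with Gata6 at 4.25 to 17.7 CPM. Plasma cells, whose ER chaperones are very abundant, left almost no trace: Jchain, Mzb1, Tnfrsf17 and Derl3 were each under 1 CPM in every library. Of the list's other 2 genes, Pou2af1 reached at most 3.01 CPM, and Sdc1, at 355 to 530 CPM, gives the list its summed level.

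Levels were compared between members only per transcript length, as mean CPM per kilobase in chow 0 h. Calreticulin (Calr), a calcium-binding chaperone of glycoproteins, was the highest at 605 ± 26.1 (SD, n = 3). Hsp90b1, the ER form of HSP90, followed at 231 ± 15.8, then Atf3, a transcription factor of the stress responses, at 228 ± 7.31, Pdia3 at 212 ± 3.10 and Hspa5 (BiP, the main ER chaperone and the brake on all 3 sensors) at 210 ± 21.4. Of these 4, every Atf3 library lay above every Pdia3 library, while the libraries of the other neighbours in this order overlapped. Atf4 stood at 118 ± 12 and Xbp1 at 65.8 ± 4.01. Of the sensors, Atf6 was the highest at 24.7 ± 2.38, while Ern1 (8.03 ± 0.665) and Eif2ak3 (7.80 ± 0.591) were close to each other. At the low end were Trib3 (2.83 ± 0.990), Chac1 (1.49 ± 0.678) and Phgdh (1.06 ± 0.234), so counting noise weighs most on these. In HFD 0 h replicate 3, Chac1 rested on 1 count and Phgdh on 4.

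**Figure D1:**
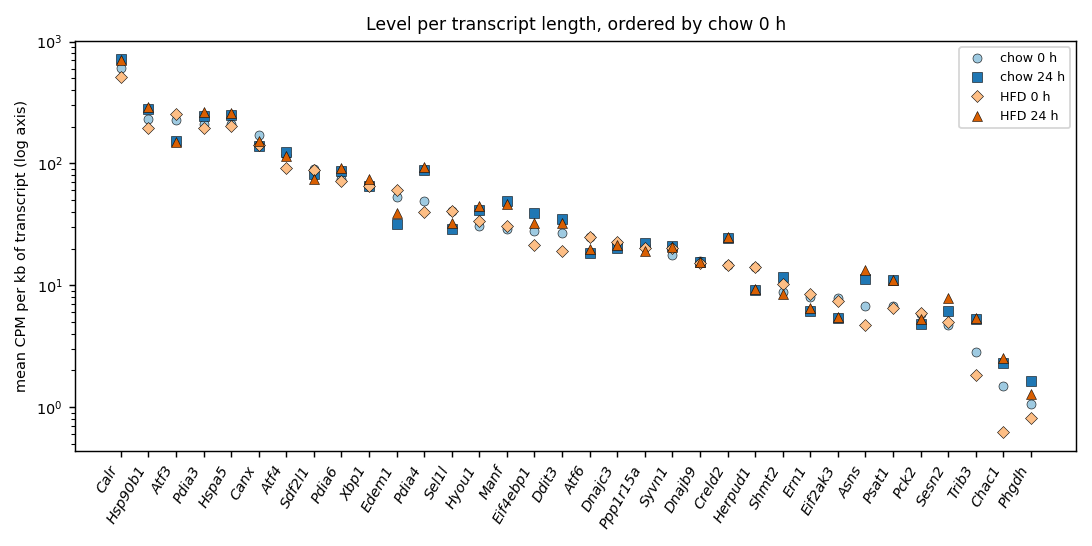
Mean CPM per kilobase of transcript (log axis) of the 34 genes in the 4 groups of 3 libraries, ordered by chow 0 h. Calr was highest in all 4 groups, at 510 to 714, and Phgdh and Chac1 were lowest.

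With LPS, the 34 genes did not move as 1 block. In chow, 7 were higher at 24 h (20.6%, beside 13.7% of all genes tested) and 6 were lower (17.6%, beside 12.9%). In HFD, 13 were higher (38.2%, beside 12.7%) and 4 were lower (11.8%, beside 12%). The median log2 fold change over the 34 was 0.23 in chow and 0.32 in HFD, with medians of 0 and -0.002 over all genes. Calls are adjusted p under 0.05 by edgeR's quasi-likelihood test with Benjamini-Hochberg adjustment over all 12641 genes. The 7 genes higher in both diets were Creld2, Manf, Pdia4, Trib3, Eif4ebp1, Asns and Psat1, and the 4 lower in both were Herpud1, Edem1, Eif2ak3 and Atf3. No gene was called in opposite directions, and 15 passed in neither diet, among them Hspa5, Xbp1 and Atf4.

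By role, the chaperones, isomerases and amino acid enzymes that passed were higher and none was lower, while the ERAD factors and sensors that passed were lower and none was higher. In chow, the 10 lumen chaperones and cofactors had 2 higher (median log2 fold change 0.25), the 3 disulfide isomerases 1 higher (0.21), the 4 ERAD genes 3 lower (-0.56), the 4 genes of the sensors and Xbp1 2 lower (-0.40), the 8 regulators of the integrated stress response 2 higher and 1 lower (0.38), and the 5 amino acid and one-carbon enzymes 2 higher (0.64). The HFD counts in the same order were 4 higher (0.38), 2 higher (0.45), 2 lower (-0.45), 1 lower (-0.32), 5 higher with 1 lower (0.64), and 2 higher (0.71). Over all genes tested, 13.7% were higher and 12.9% lower in chow, and 12.7% and 12% in HFD. Some role counts were near those shares, such as the regulators lower in each diet (12.5%). The roles hold only 3 to 10 genes each, and none was tested as a set. In bulk RNA, fewer cells of a type and less RNA per cell cannot be told apart.

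**Figure D2:**
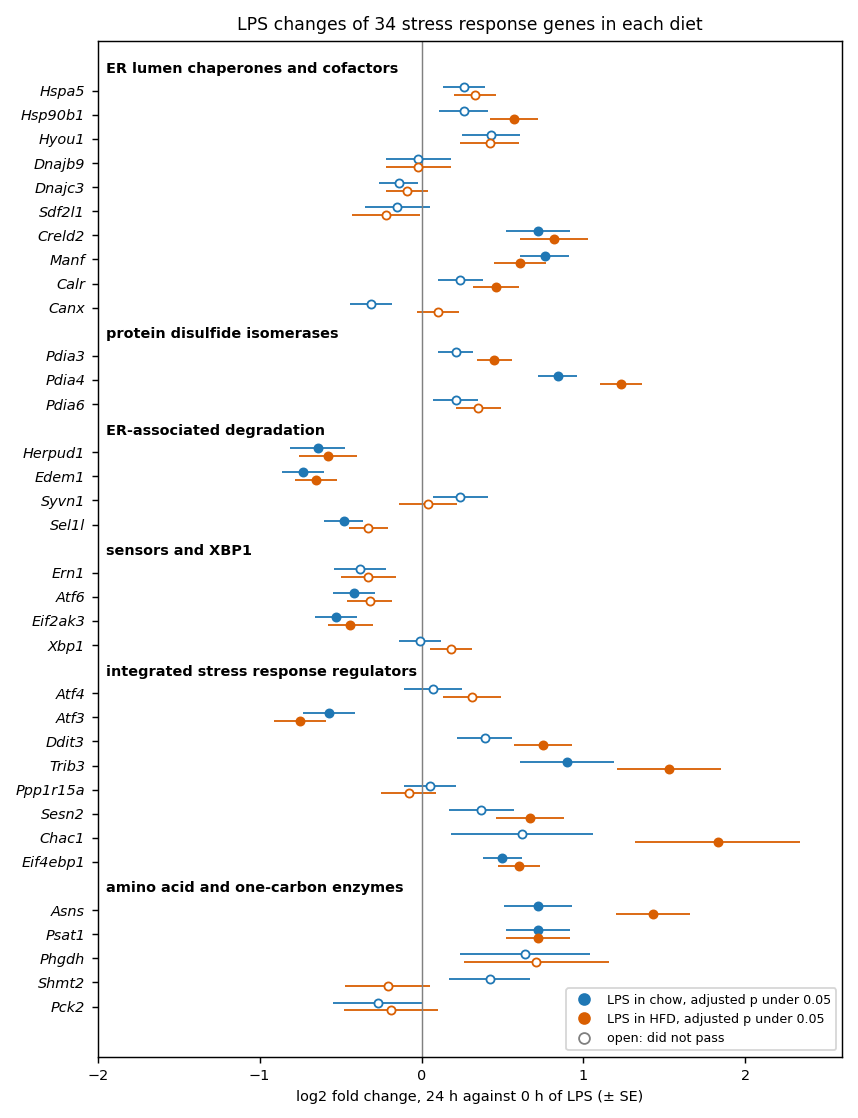
Log2 fold change of each gene at 24 h against 0 h of LPS, with its SE, in chow (blue) and HFD (orange); filled points had an adjusted p under 0.05. Points of the ERAD and sensor groups lie mostly left of 0 and those of the isomerases right of it, with Chac1, Trib3, Asns and Pdia4 farthest right in HFD.

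The lane tag bears on the chow count. With the tag as a covariate, a fit that leans on HFD 24 h replicate 1 as the tagged HFD library, 1 member stayed higher (Pdia4) and 1 lower (Herpud1) in chow. Calls fell over all genes too: 874 were higher and 635 lower in chow with the tag, beside 1729 and 1628 without it. Most of the member estimates that lost their chow call were of similar or larger size with the tag fitted: Creld2 0.72, Manf 0.62, Trib3 0.92, Asns 0.98, Psat1 0.90, Sel1l -0.51 and Eif2ak3 -0.58 (adjusted p = 0.12 to 0.329). Smaller with the tag were Edem1 (-0.31, adjusted p = 0.374), Atf3 (-0.17, 0.77), Eif4ebp1 (0.35, 0.376) and Atf6 (-0.32, 0.479). The same fit gave 12 higher and 4 lower in HFD. HFD without its tagged library also gave 12 higher and 4 lower (1582 and 1337 over all genes). The tagged chow libraries stayed in that fit and its shared spread, so it was not a fit of untagged libraries alone. Leaving out the shallow HFD 0 h replicate 3 together with the tagged HFD library, a choice made after seeing the data, gave 12 and 4 in HFD and 8 and 8 in chow. Over all genes, the same omission gave 1535 higher and 1402 lower in HFD and 2037 and 1950 in chow. Leaving out chow 0 h replicate 3, which had the lowest level of its group for 21 of the 34 genes, cut the members higher in chow from 7 to 3. Over all genes, that step took the number higher in chow from 1729 to 1370. Chow 24 h replicate 3 had the lowest level of its group for 22 of the 34, and without it 8 were higher in chow (1626 over all genes). The 4 genes lower in HFD became 2 without HFD 0 h replicate 1, without HFD 24 h replicate 2 or without HFD 24 h replicate 3. Over all genes, the number lower in HFD went from 1511 to 1321, 1195 and 1110 in these fits, in that order.

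Among the lumen chaperones, Creld2 and Manf, small secreted or ER-resident proteins induced by ER stress, were higher in both diets. Creld2 (chromosome 15, 88819646 to 88826681) measured 23.9, 19.0 and 17.5 CPM in the chow 0 h libraries and 29.3, 35.4 and 35.0 CPM at 24 h. In HFD it went from 15, 18.4 and 27.4 CPM to 34.1, 28.9 and 39.1 CPM. The 0 h and 24 h libraries did not overlap in either diet, with log2 fold changes of 0.72 ± 0.20 (SE, adjusted p = 0.0104) in chow and 0.82 ± 0.21 (adjusted p = 0.00665) in HFD. Manf (chromosome 9, 106888753 to 106891938) read 71.2, 63.5 and 61.8 CPM before and 126, 118 and 89.2 CPM after LPS in chow. Its HFD libraries read 59.4, 66.8 and 82.3 CPM and then 111, 93.6 and 108 CPM. Each 24 h value again exceeded each 0 h value, with log2 fold changes of 0.76 ± 0.15 (adjusted p = 0.00117) and 0.61 ± 0.16 (adjusted p = 0.00812). The Creld2 call ended in chow without chow 0 h replicate 3 (0.64, adjusted p = 0.0619) and in HFD without HFD 0 h replicate 1 (0.64, adjusted p = 0.0567).

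Hspa5 (chromosome 2, 34772090 to 34776529), the usual first readout of ER stress, did not pass in either diet. Its levels were 605, 550 and 493 CPM in chow 0 h and 644, 690 and 635 CPM in chow 24 h. In HFD they were 526, 508 and 567 CPM at 0 h and 619, 604 and 791 CPM at 24 h. The 24 h libraries lay above the 0 h libraries in both diets, but the differences were small, with log2 fold changes of 0.26 ± 0.13 (adjusted p = 0.174) and 0.33 ± 0.13 (adjusted p = 0.0783). The second large chaperone, Hsp90b1, read 585, 533 and 556 CPM in HFD 0 h and 716, 762 and 1008 CPM in HFD 24 h, and was higher there by 0.57 ± 0.15 on the log2 scale (adjusted p = 0.00737). In chow, Hsp90b1 went from 693, 661 and 604 CPM to 715, 721 and 912 CPM, without overlap, and the estimate of 0.26 ± 0.15 did not pass (adjusted p = 0.209). Calr was called in HFD, at 1114 ± 119 CPM before and 1536 ± 225 CPM after LPS (SD, n = 3; log2 fold change 0.46 ± 0.14, adjusted p = 0.0189), and had 0.24 ± 0.14 in chow (adjusted p = 0.223). That HFD call for Calr ended without HFD 0 h replicate 2 (0.39, adjusted p = 0.0731), without the tagged HFD 24 h replicate 1 (0.37, adjusted p = 0.0683) and with the lane tag fitted (0.35, adjusted p = 0.0963). It also ended with only the groups compared (0.46, adjusted p = 0.0737) and without the shallow and the tagged HFD library together (0.36, 0.106).

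The other 5 genes of this group passed in neither diet. Hyou1, a large HSP70-like chaperone, had log2 fold changes of 0.43 ± 0.18 and 0.42 ± 0.18 in chow and HFD (adjusted p = 0.0907 and 0.105). It passed in chow without chow 24 h replicate 3 (0.57, adjusted p = 0.0314) or HFD 0 h replicate 3 (0.42, 0.0425), and in HFD without HFD 0 h replicate 3 (0.64, 0.0106) or HFD 24 h replicate 2 (0.56, 0.0483). Dnajb9, Dnajc3 and Sdf2l1, co-chaperones of BiP, had estimates between -0.22 and -0.02. Canx, the membrane-bound relative of calreticulin, had -0.31 ± 0.13 in chow (adjusted p = 0.1) and 0.10 ± 0.13 in HFD (adjusted p = 0.627). Without HFD 0 h replicate 3, Canx passed as lower in chow (-0.31, adjusted p = 0.0427). Of the 8 genes with an ER stress element in the promoter window, 1 was thus higher in chow (Creld2) and 3 were higher in HFD (Calr, Creld2 and Hsp90b1), and 5 passed in neither diet. Over all genes tested, 13.7% were higher in chow and 12.7% in HFD. Whether the element goes with an LPS change was not tested.

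The disulfide isomerases, which form and rearrange disulfide bonds in the ER, held the smallest adjusted p of all 34 genes. Pdia4 (chromosome 6, 47796141 to 47813512) measured 130, 121 and 106 CPM in chow 0 h and 214, 218 and 208 CPM in chow 24 h. In HFD it measured 97.0, 97.4 and 93.5 CPM before and 240, 197 and 240 CPM after LPS. The libraries of the 2 times were far apart in both diets: Pdia4 was 1.79-fold higher in chow (log2 fold change 0.84 ± 0.12, adjusted p = 5.67e-05) and 2.35-fold higher in HFD (1.23 ± 0.13, adjusted p = 1.05e-06). Pdia4 kept both calls under all 24 alternatives run. Pdia3, which works with calnexin and calreticulin on glycoproteins, read 564, 531 and 518 CPM in HFD 0 h and 679, 719 and 808 CPM in HFD 24 h. Pdia3 was higher in HFD by 0.45 ± 0.11 (adjusted p = 0.00639), without overlap, and had 0.21 ± 0.11 in chow (adjusted p = 0.206). Fitted on the HFD libraries only, the Pdia3 call was missed (0.44, adjusted p = 0.053). Pdia6, which also acts on the sensors, had 0.21 ± 0.14 (adjusted p = 0.286) and 0.35 ± 0.14 (adjusted p = 0.0756). Pdia6 passed in HFD without chow 24 h replicate 3 (0.37, adjusted p = 0.0384).

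ERAD factors were lower where they passed. Edem1 (chromosome 6, 108824045 to 108859356), a lectin that hands misfolded glycoproteins to the degradation machinery and a known XBP1 target, read 319, 310 and 294 CPM in chow 0 h and 192, 188 and 177 CPM in chow 24 h. Its HFD libraries read 340, 371 and 353 CPM and then 185, 250 and 245 CPM. No 24 h library reached a 0 h library, and the log2 fold changes were -0.73 ± 0.13 (adjusted p = 0.000334) in chow and -0.65 ± 0.13 (adjusted p = 0.00106) in HFD. With the lane tag fitted the chow value of Edem1 was -0.31 (adjusted p = 0.374). Herpud1, an ER membrane protein that organises the ERAD complex, stood at 26.9, 27.4 and 28.2 CPM in chow 0 h and at 17.1, 21.7 and 14.4 CPM in chow 24 h. In HFD, Herpud1 stood at 27.2, 24.6 and 30.1 CPM and then at 21.4, 16.8 and 16.3 CPM. It fell without overlap in both diets, by 0.64 ± 0.17 in chow (adjusted p = 0.0112) and 0.58 ± 0.18 in HFD (adjusted p = 0.0248) on the log2 scale. Its calls were fragile: in chow it missed without chow 24 h replicate 3 (-0.49, adjusted p = 0.0573), and in HFD without HFD 0 h replicate 1 (-0.56, 0.0644), HFD 0 h replicate 3 (-0.51, 0.0561), HFD 24 h replicate 2 (-0.51, 0.0948) or HFD 24 h replicate 3 (-0.48, 0.109). Herpud1 also missed in HFD with no filter (-0.52, adjusted p = 0.0532) and with only the groups compared (-0.58, 0.0548).

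Sel1l and Syvn1 encode the adaptor and the ubiquitin ligase at the core of ERAD, and of them 1 passed, in chow. Sel1l had 252, 253 and 259 CPM in chow 0 h and 168, 192 and 189 CPM in chow 24 h, and was lower there (-0.48 ± 0.12, adjusted p = 0.00583). In HFD, Sel1l went from 276, 236 and 252 CPM to 206, 184 and 219 CPM. Those groups did not overlap either, but the estimate of -0.33 ± 0.12 did not pass (adjusted p = 0.0541). Sel1l passed in HFD without HFD 0 h replicate 2 (-0.38, adjusted p = 0.0488), by DESeq2 (0.0221) and by limma-voom (0.0429). Syvn1 had estimates of 0.24 ± 0.17 and 0.04 ± 0.18 (adjusted p = 0.348 and 0.888).

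All 3 sensors had negative estimates in both diets, and Xbp1 was near 0. Eif2ak3 (chromosome 6, 70844484 to 70905241) measured 35.0, 32.6 and 37.9 CPM in chow 0 h and 25.8, 24.9 and 22.3 CPM in chow 24 h. In HFD it measured 35.6, 32.7 and 32.4 CPM and then 25.4, 24.8 and 24.1 CPM. The 24 h libraries were tightly grouped below all 0 h libraries, with log2 fold changes of -0.53 ± 0.13 (adjusted p = 0.00637) and -0.44 ± 0.14 (adjusted p = 0.0241). The HFD call for Eif2ak3 was lost when HFD 0 h replicate 1 was left out (-0.39, adjusted p = 0.0924), and likewise on leaving out replicate 2 (-0.43, 0.0689) or replicate 3 (-0.40, 0.0807) of HFD 24 h. With all libraries kept it was also lost with no filter (-0.39, adjusted p = 0.11), as it was with only the groups compared (-0.45, 0.0903).

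Atf6 had 161, 180 and 196 CPM in chow 0 h and 130, 120 and 152 CPM in chow 24 h, and was lower by 0.42 ± 0.13 on the log2 scale (adjusted p = 0.0291). In HFD, Atf6 went from 184, 201 and 154 CPM to 139, 150 and 146 CPM (-0.32 ± 0.14, adjusted p = 0.102). The groups did not overlap in either diet. Atf6 lost its chow call without chow 0 h replicate 2 (-0.41, adjusted p = 0.0879), chow 0 h replicate 3 (-0.35, 0.146), chow 24 h replicate 1 (-0.37, 0.119), chow 24 h replicate 2 (-0.32, 0.159) or HFD 24 h replicate 2 (-0.39, 0.0504), and passed in HFD without HFD 0 h replicate 3 (-0.41, 0.0378). With no filter the chow call was lost as well (-0.39, adjusted p = 0.0666).

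Ern1 read 50.8, 59.9 and 56.6 CPM in chow 0 h and 41.4, 42.1 and 44.6 CPM in chow 24 h, a difference of -0.38 ± 0.16 that did not pass (adjusted p = 0.0994). In HFD its libraries overlapped, at 51.3, 47.1 and 76.9 CPM and then 48.6, 48.8 and 39.0 CPM (-0.33 ± 0.17, adjusted p = 0.175). The value of 76.9 CPM came from the shallow HFD 0 h replicate 3, and without that library Ern1 passed as lower in chow (-0.39, adjusted p = 0.0255). Xbp1 stood at 145, 145 and 130 CPM in chow 0 h and at 139, 155 and 125 CPM in chow 24 h. Its HFD values were 147, 153 and 116 CPM and then 148, 158 and 166 CPM. Both pairs of groups overlapped, with estimates of -0.01 ± 0.13 (adjusted p = 0.982) and 0.18 ± 0.13 (adjusted p = 0.379). The counts of the 2 Xbp1 transcript identifiers were nearly the same (the lower mean was 0.992 of the higher), so they give no measure of the splicing by IRE1.

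**Figure D3:**
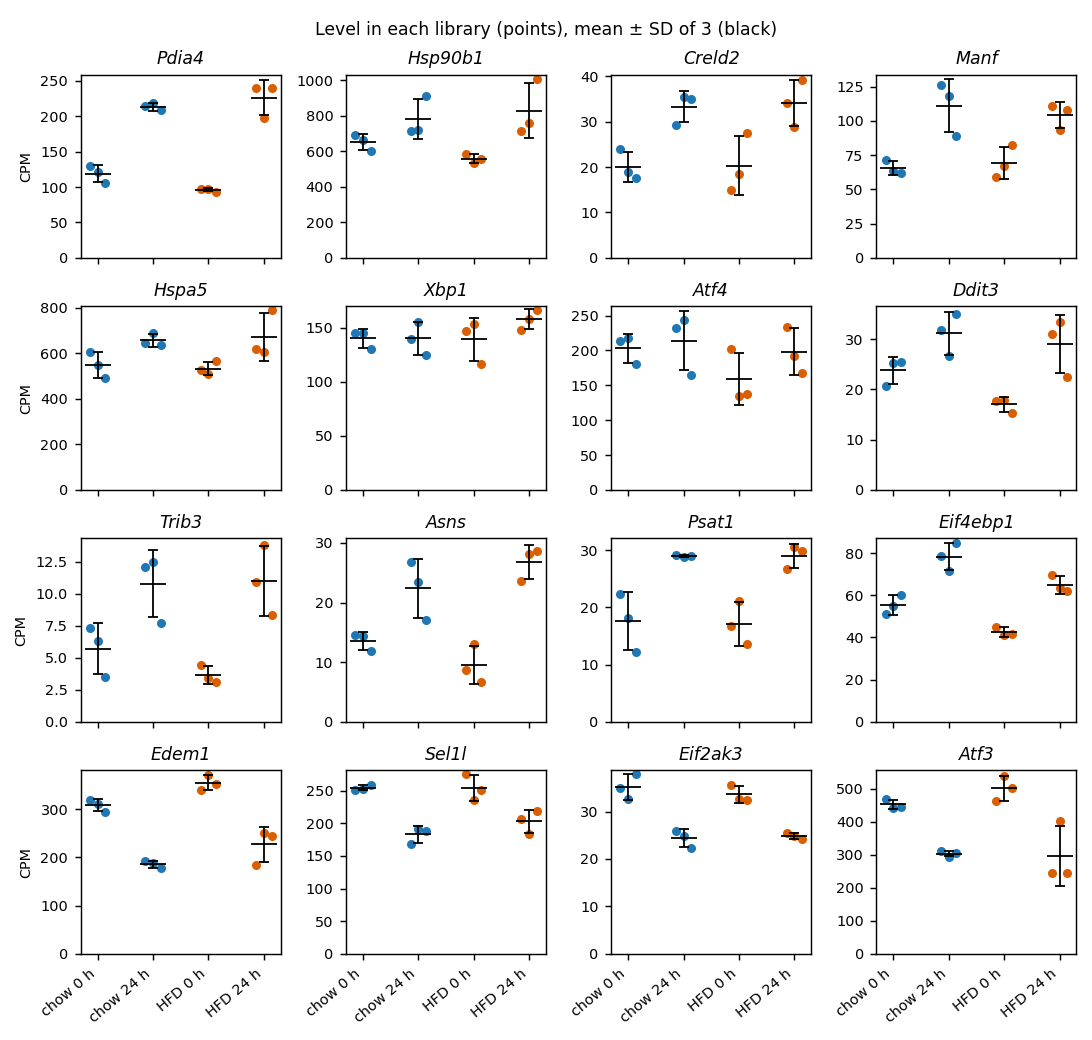
CPM in each library (points) with the mean and SD of 3 libraries (black) for 16 of the genes, in chow (blue) and HFD (orange) at 0 h and 24 h of LPS; every axis starts at 0. The 0 h and 24 h points of Pdia4, Edem1 and Eif2ak3 are apart in both diets, while those of Xbp1 and Atf4 overlap.

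Among the regulators of the integrated stress response, Atf4 itself did not pass. It measured 213, 218 and 180 CPM in chow 0 h and 232, 244 and 165 CPM in chow 24 h. In HFD it measured 202, 135 and 138 CPM and then 234, 192 and 167 CPM. The times overlapped in both diets, at 0.07 ± 0.18 (adjusted p = 0.825) and 0.31 ± 0.18 (adjusted p = 0.247), and Atf4 passed in HFD without HFD 0 h replicate 1 (0.54, adjusted p = 0.0498). ATF4 is regulated mostly by translation, which these counts do not measure. Ddit3 (CHOP), a transcription factor downstream of ATF4, read 20.6, 25.2 and 25.4 CPM in chow 0 h and 31.9, 26.6 and 35.0 CPM in chow 24 h. Its HFD libraries read 17.7, 17.9 and 15.3 CPM and then 31.1, 33.5 and 22.5 CPM. Ddit3 did not overlap between the times in either diet and was higher in HFD (0.75 ± 0.18, adjusted p = 0.00549), while the chow estimate of 0.39 ± 0.17 did not pass (adjusted p = 0.111).

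Trib3 (chromosome 2, 152337425 to 152344060), a pseudokinase induced by ATF4 and CHOP, had 7.37, 6.32 and 3.49 CPM in chow 0 h and 12.1, 12.5 and 7.73 CPM in chow 24 h. In HFD, Trib3 had 4.47, 3.45 and 3.15 CPM and then 10.9, 13.8 and 8.32 CPM. Each 24 h library lay above each 0 h library, by a narrow margin in chow, with log2 fold changes of 0.90 ± 0.29 (adjusted p = 0.0287) and 1.53 ± 0.32 (adjusted p = 0.00178). The chow call for Trib3 ended without chow 0 h replicate 2 (0.98, adjusted p = 0.0583), chow 0 h replicate 3 (0.64, 0.138), chow 24 h replicate 1 (0.82, 0.0903) or chow 24 h replicate 2 (0.79, 0.0996). Eif4ebp1, an inhibitor of cap-dependent translation, read 51.0, 54.7 and 60.3 CPM in chow 0 h and 78.5, 71.7 and 84.6 CPM in chow 24 h. In HFD, Eif4ebp1 read 45.1, 41.0 and 41.8 CPM and then 69.6, 63.4 and 61.8 CPM. It was higher without overlap in both diets, by 0.50 ± 0.12 (adjusted p = 0.00582) and 0.60 ± 0.13 (adjusted p = 0.0019) on the log2 scale.

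Atf3 (chromosome 1, 191170296 to 191183333) went the other way from Ddit3 and Trib3. It stood at 469, 443 and 446 CPM in chow 0 h and at 312, 294 and 306 CPM in chow 24 h. The HFD libraries held 463, 539 and 504 CPM and then 245, 402 and 246 CPM. Atf3 was lower at 24 h without overlap in both diets, at -0.57 ± 0.16 (adjusted p = 0.0137) and -0.75 ± 0.16 (adjusted p = 0.00216), although HFD 24 h replicate 2 stood well above the other two libraries of its group. In chow its call ended without chow 0 h replicate 1 (-0.53, adjusted p = 0.0574) or chow 24 h replicate 2 (-0.54, 0.0594), and with the lane tag fitted the estimate was -0.17 (0.77). Chac1, which degrades glutathione, and Sesn2, an inhibitor of mTORC1 that senses leucine, passed in HFD and not in chow. Chac1 went from 1.02 ± 0.555 to 4.16 ± 1.76 CPM (SD, n = 3; log2 fold change 1.83 ± 0.51, adjusted p = 0.0139) and had 0.62 ± 0.44 in chow (adjusted p = 0.341). Sesn2 went from 17.3 ± 3.10 to 27.4 ± 5.26 CPM (0.67 ± 0.21, adjusted p = 0.0239) and had 0.37 ± 0.20 in chow (adjusted p = 0.203). Without HFD 0 h replicate 1 or HFD 24 h replicate 2, neither passed in HFD (Chac1 1.73, adjusted p = 0.062, and 1.52, 0.0621; Sesn2 0.52, 0.12, and 0.52, 0.109). Chac1 also missed by limma-voom (1.67, adjusted p = 0.0835) and without the shallow and the tagged HFD library together (1.64, 0.059), and Sesn2 with upper-quartile factors (0.59, 0.0523). Ppp1r15a (GADD34), which directs the phosphatase that resets eIF2, had estimates of 0.05 ± 0.16 and -0.08 ± 0.17.

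Of the amino acid enzymes, Asns and Psat1 were higher in both diets. Asns (chromosome 6, 7675165 to 7693209), asparagine synthetase and a standard ATF4 target, measured 14.6, 14.4 and 11.9 CPM in chow 0 h and 26.8, 23.4 and 17.1 CPM in chow 24 h. In HFD it measured 8.74, 13 and 6.74 CPM and then 23.6, 28.1 and 28.7 CPM. The groups did not overlap, and Asns was 1.64-fold higher in chow (log2 fold change 0.72 ± 0.21, adjusted p = 0.0182) and 2.69-fold higher in HFD (1.43 ± 0.23, adjusted p = 0.000134). In chow, Asns missed without chow 0 h replicate 3 (0.62, adjusted p = 0.0831) or chow 24 h replicate 1 (0.58, 0.0878).

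Psat1, the second enzyme of serine synthesis, read 22.3, 18.2 and 12.2 CPM in chow 0 h and 29.2, 28.8 and 29.0 CPM in chow 24 h. Its HFD means were 17.1 ± 3.84 CPM at 0 h and 29.0 ± 2.08 CPM at 24 h (SD, n = 3). Both log2 fold changes were 0.72 ± 0.20, with an adjusted p of 0.011 in chow and 0.015 in HFD. Without chow 0 h replicate 3 the chow call for Psat1 ended (0.52, adjusted p = 0.0713), and without HFD 0 h replicate 1 the HFD call (0.69, 0.0606). Phgdh, the first enzyme of that pathway, had positive estimates with wide errors at its low level, 0.64 ± 0.40 and 0.71 ± 0.45 (adjusted p = 0.272 and 0.279). Shmt2, which makes one-carbon units in mitochondria, had 0.42 ± 0.25 and -0.21 ± 0.26, and Pck2, the mitochondrial PEP carboxykinase, -0.27 ± 0.28 and -0.19 ± 0.29. Of the 6 genes with a C/EBP-ATF core in the window, Asns, Chac1 and Trib3 were higher in HFD, Atf3 and Herpud1 were lower, and Pck2 did not pass. In chow the calls were the same except that Chac1 did not pass. Over all genes tested, 12.7% were higher and 12% lower in HFD, and 13.7% and 12.9% in chow.

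Diet alone moved none of the 34 genes past the threshold. At 0 h, 0 members were higher in HFD than in chow (0% of all genes tested) and 0 were lower (0.087%, 11 genes). At 24 h, 0 were higher (0.00791%, 1 gene) and 0 lower (0%). These counts are edgeR's; DESeq2 and limma-voom also called 0 members at both times. At an unadjusted p under 0.05 by edgeR there were 3 members at 0 h and 2 at 24 h, beside 778 and 993 of all 12641 genes tested. The smallest adjusted p of a member was 0.575 and 0.624. The 3 at 0 h did not pass, and their HFD libraries lay below their chow libraries without overlap: Eif4ebp1 (42.6 ± 2.16 against 55.4 ± 4.66 CPM, log2 fold change -0.37 ± 0.13), Ddit3 (17 ± 1.46 against 23.8 ± 2.73 CPM, -0.47 ± 0.19) and Pdia4 (96.0 ± 2.13 against 119 ± 12.4 CPM, -0.31 ± 0.13). The lack of overlap was not particular to these 3. In all, 8 members lay lower in HFD 0 h without overlap, Hsp90b1, Calr, Canx, Pdia3 and Chac1 among them, and 1 lay higher (Edem1). The share of all genes without overlap was not counted, so whether the 8 and the 1 differ from that share is not known. At 24 h the estimates were -0.27 ± 0.12 for Eif4ebp1 and 0.29 ± 0.13 for Edem1 (both adjusted p = 0.624). The diet comparison at 0 h and the LPS change in HFD share the HFD 0 h libraries, so their values are not independent.

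The LPS change did not differ between the diets for any member by the test of that difference. The interaction, the LPS change in HFD minus that in chow, called 0 members higher (0% of all genes) and 0 lower (0%), with an adjusted p of 1 for all 34. DESeq2 and limma-voom called 0 members as well. By edgeR, 3 members had an unadjusted p under 0.05, beside 297 of all 12641 genes tested. The 3 members were Asns (0.71 ± 0.31), Canx (0.41 ± 0.19) and Pdia4 (0.39 ± 0.18), and the widest estimate was that of Chac1 (1.21 ± 0.68). The estimates were positive for 26 of the 34, with a median of 0.09 beside 0.01 over all genes. The larger number of genes higher in HFD than in chow, 13 against 7, is therefore a difference in what passed, not a difference shown between the responses.

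The other genes of these pathways were counted in 7 lists with 133 entries, 131 of them tested. With LPS, 28 were higher and 4 lower in chow (21.4% and 3.05%) and 33 higher and 4 lower in HFD (25.2% and 3.05%), with medians of 0.25 and 0.23. Over all genes tested the shares were 13.7% higher and 12.9% lower in chow and 12.7% and 12% in HFD, so the share lower in these lists was below that of all genes. For diet and the interaction, 0 passed by edgeR. Genes linked to ATF4 had 8 higher and 1 lower of 23 in chow and 9 higher and 1 lower in HFD. Slc7a11, the cystine transporter, went from 49.6 to 191 CPM in chow and from 29.5 to 150 CPM in HFD (log2 fold changes 1.94 ± 0.28 and 2.33 ± 0.30, adjusted p = 9.24e-05 and 2.74e-05). Mthfd2, a mitochondrial folate enzyme, had 1.49 ± 0.16 and 1.20 ± 0.17, and Nupr1, a stress-induced chromatin protein, 1.64 ± 0.21 and 1.97 ± 0.24. Gdf15, a secreted factor that stress induces in many tissues, was lower, from 39.0 to 15.6 CPM in chow and from 37.6 to 13.9 CPM in HFD (-1.33 ± 0.29 and -1.40 ± 0.29).

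Cytosolic aminoacyl-tRNA synthetases, many of them ATF4 targets, had 6 of 20 higher in chow and 8 of 20 higher in HFD, with 0 lower in either. Wars, which interferon also induces, led them at 1.70 ± 0.15 and 1.68 ± 0.15, followed by Kars at 1.02 ± 0.13 and 0.95 ± 0.14. Of 17 other stress sensors, eIF2 kinases and eIF2 factors, 5 were higher in chow and 4 in HFD. Eif2ak2 (PKR), the eIF2 kinase that binds double-stranded RNA and is itself an interferon-stimulated gene, went from 41.3 to 120 CPM in chow and from 31.7 to 108 CPM in HFD (1.54 ± 0.21 and 1.71 ± 0.22, adjusted p = 3.44e-05 and 1.67e-05). Eif2ak3, the eIF2 kinase of the ER, was lower in the same libraries.

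Several of the remaining lists had shares near those of all genes. The 18 other ER folding and redox factors had 3 higher and 1 lower in chow and 4 higher and 2 lower in HFD. Ero1a, the oxidase that recharges disulfide isomerases, was higher in both (0.71 ± 0.21, adjusted p = 0.0166, and 1.31 ± 0.22, adjusted p = 0.000179), as were Dnajb11 and Erp44. Uggt1, which checks the folding of glycoproteins, was lower in both (-0.64 ± 0.13, adjusted p = 0.00107, and -0.39 ± 0.13, adjusted p = 0.0363). Of 16 other ERAD factors tested, 1 was higher and 1 lower in chow and 2 were higher and 1 lower in HFD. The lower one in both was Edem3, a relative of Edem1 (-0.38 ± 0.13, adjusted p = 0.0351, and -0.41 ± 0.13, adjusted p = 0.0266). The 27 genes of the translocon, oligosaccharyltransferase and ER export had 3 and 4 higher and 0 lower, with Sec23b at 0.61 ± 0.14 and 0.55 ± 0.14. Of 10 genes of the mitochondrial unfolded protein response, 2 were higher and 1 lower in chow and 2 were higher in HFD, among them Hspa9 in both (0.37 ± 0.11 and 0.38 ± 0.12).

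**Figure D4:**
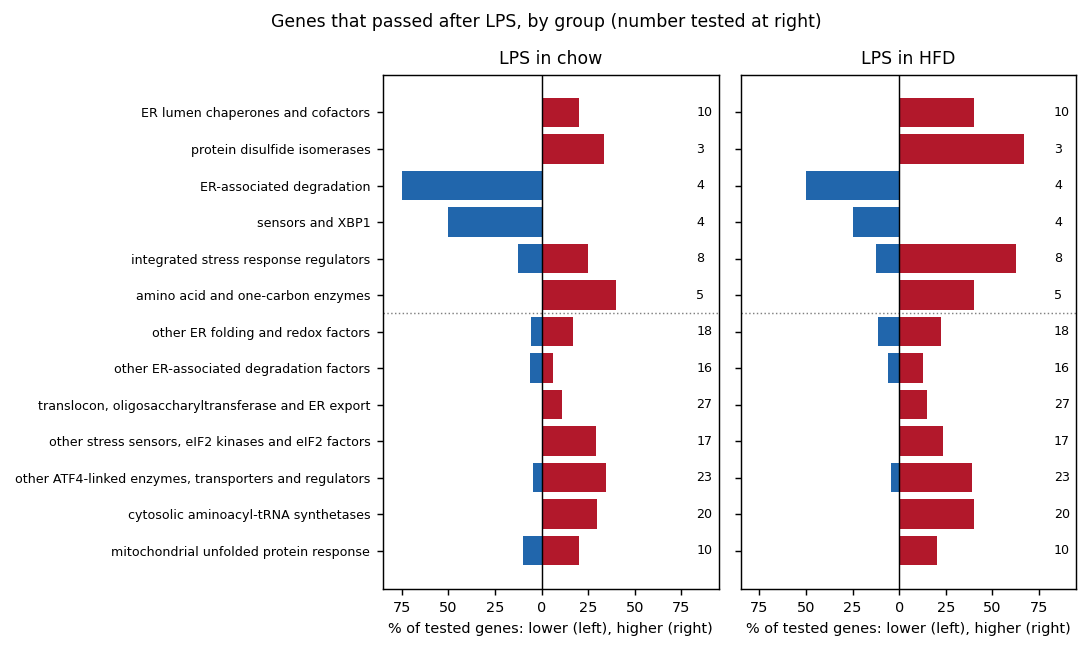
Percent of tested genes that passed as higher (right, red) or lower (left, blue) after LPS, for the 6 roles of the 34 genes (above the dotted line) and 7 lists of related genes (below it), with the number tested at the right. In both diets, the ERAD members and the members among the sensors and Xbp1 have bars to the left only. The list of other ERAD factors has bars on both sides. The list of other stress sensors, eIF2 kinases and eIF2 factors and that of the tRNA synthetases have bars to the right only.

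Markers of other cells were read beside these changes. The 8 fibroblast genes, whose products need much ER folding, summed to 2358 to 4891 CPM in chow 0 h, 2272 to 5493 CPM in chow 24 h, 1940 to 3085 CPM in HFD 0 h and 1900 to 2252 CPM in HFD 24 h. Their ranges overlapped between the times in both diets, and 0 of 7 tested passed for LPS in either. Fn1 held the largest part of the sum, with means of 1800.5 and 1545 CPM in chow and 1223 and 869 CPM in HFD. Its cell source was not tested. With the summed level of the 8 genes as a covariate, an alternative added after seeing the data, 8 members were higher and 6 lower in chow. In HFD 16 were higher, Hspa5 among them (0.36, adjusted p = 0.0415), and 6 lower. Over all genes, that fit called 1930 higher and 1853 lower in chow and 1778 and 1668 in HFD. Mesothelial markers summed to 13 to 26.0 CPM in chow 0 h and 9.37 to 24.9 CPM in chow 24 h, and to 14.9 to 19.6 and then 7.75 to 10.4 CPM in HFD, with 2 of 5 tested lower in each diet (Lrrn4 and Upk3b). Of the 8 macrophage markers, 3 were higher and 1 lower with LPS in each diet, with Lyz2 lower from 9831 to 4477 CPM in chow and from 9914 to 4858 CPM in HFD. The neutrophil list summed to 35.0 to 41.2 CPM and then 54.7 to 84.2 CPM in chow, and to 27.9 to 47.4 and then 42.3 to 60.4 CPM in HFD, with Ly6g and S100a9 under 1 CPM in every library. S100a8 had the largest rise of that list, from a mean of 8.99 to 34.3 CPM in chow and from 12.3 to 24.2 CPM in HFD. Mmp8 means went from 18.6 to 15.9 CPM and from 23.7 to 19.9 CPM. Retnlg and Camp means were higher in both diets and Ltf means lower. The dendritic cell list was higher at 24 h without overlap, at 16.5 to 23.0 and then 27.4 to 36.4 CPM in chow and 5.40 to 13.2 and then 15.9 to 18 CPM in HFD, with 1 of 3 tested genes higher in each diet (Ccr7) and Xcr1, Cd209a and Itgae under 1 CPM in every library. The large peritoneal macrophage list summed to 32.1 to 38.9 and then 57.0 to 69.6 CPM in chow and to 24.2 to 61.1 and then 44.1 to 68.9 CPM in HFD, with 2 of 7 higher in each diet (Prg4 and Timd4). Prg4 made most of that rise, with means from 9.28 to 29.2 CPM in chow and from 14.3 to 33.6 CPM in HFD. Gata6 means went from 13.1 to 11.0 CPM and from 10.1 to 5.83 CPM. Selp and Garnl3 means were also lower in both diets, Icam2 means were higher in both, and Alox15 was higher in chow only. B cell, T and NK cell and mast cell lists each summed to at most 25.9 CPM in any library. The part of these mesothelial, macrophage, neutrophil and dendritic cell differences in the members' changes was not tested.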

How the data were processed

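Libraries were made with the NuGen Ovation Universal kit and, per the submitters' processing notes, processed with CASAVA 1.8.2 and STAR 2.5.2b on mm10; the sources used here do not name the read counter or its strand setting, and reads of overlapping genes cannot be assigned to one of them by strand. The deposited values are raw counts by the authors for 35745 RefSeq identifiers (35440 with a RefSeq symbol, 188 with a GENCODE symbol, 117 with none). Isoforms share reads (the least counted isoform of a gene had a median of 0.935 of the mean of the most counted), so the transcript with the highest mean stood for its gene. Identifiers without a symbol held 2.33% to 12.02% of a library and stayed in its total. By a chi-square test no 2 libraries of a group agreed within sampling noise, and all 12 were kept.

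CPM are counts relative to library totals scaled by TMM, and CPM per kilobase divides them by transcript length. Counts were filtered with filterByExpr by group and fitted in R 4.3.3 with edgeR 4.0.16 (robust glmQLFit, then glmQLFTest; 4 group means, 12 libraries, 8 residual degrees of freedom, common biological coefficient of variation 18%). SEs of log2 fold changes were their size divided by the root of F. The steps were tested on simulated data. The members, lists and tests were chosen with earlier results of these data known. All 34 members are accounted for. Values per library are given for up to 8 members per direction that passed and for 9 key genes, and from each related list at most 3 genes per direction with the smallest adjusted p. Calr, Chac1 and Sesn2, outside that rule, were chosen after their values were seen. Alternatives were other size factors, no filter or 1 CPM in 3 libraries, DESeq2 1.42.0, limma-voom (limma 3.58.1), only the groups compared, the lane tag, isoform sums, the replicate block and each library left out.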

Additional observations from a re-analysis of the deposited data

How the results depend on the processing

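Over 24 alternatives, 4046 estimates of single members in a comparison were recomputed: 3960 stayed on their side of the threshold, 54 lost a call, 32 gained one and 0 called members reversed. Most of the 4046 were diet or interaction estimates far from the threshold (edgeR adjusted p of 0.575 or more), so the total says little about the calls. Single calls ranged from Atf6 in chow, kept in 17 of 24, to Pdia4 in both diets, kept in 24 of 24. Estimates that did not pass could change sign, as for Hspa5 with diet at 0 h (-0.04, and 0.04 without chow 0 h replicate 1). With the lane tag as a covariate, LPS in chow had 1 member higher and 1 lower with a median log2 fold change of 0.09. Over all genes, that fit called 874 higher and 635 lower in chow. Leaving out 1 library at a time gave 3 (without chow 0 h replicate 3) to 8 members higher and 4 to 8 lower for LPS in chow, and 10 to 14 higher for LPS in HFD. Members lower in HFD numbered 2 with no filter, 2 with only the groups compared (fewer samples, 12000 genes tested) and 2 to 5 with 1 library left out (2 without HFD 0 h replicate 1, HFD 24 h replicate 2 or HFD 24 h replicate 3). Over all genes, 1290 were lower in HFD with no filter and 1216 with only the groups compared, beside 1511 in the main fit. The median for LPS in HFD was 0.25 with upper-quartile factors, which moved the median of all genes by -0.074, and 0.24 without the shallow and the tagged HFD library. The diet median at 0 h ran from -0.12 (without chow 0 h replicate 3) to -0.02 with 1 library left out, the diet median at 24 h was 0.14 with the fibroblast level as a covariate, and the interaction median ran from 0.10 to 0.16 (without chow 0 h replicate 3). For the other moves the cause was not tested. Diet and interaction kept 0 members under every alternative run; the interaction has no fit with only the groups compared, since it uses all 4.

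Label numbers repeat between the times of a diet. Deviations of same-numbered libraries correlated at 0.301, 0.091 and 0.346 in chow and 0.055, 0.263 and 0.029 in HFD, not all over 0.1, so the numbers were not taken to pair the samples. Libraries of different numbers ran lower, from -0.307 to 0.109 in chow and from -0.185 to 0.091 in HFD. Whether the numbers mark pairs is thus unsettled. Chow 24 h replicate 2, HFD 0 h replicate 3 and HFD 24 h replicate 1 correlated best with a library of another number. With the replicate block by label number, 8 members were higher and 6 lower in chow, 15 and 5 in HFD, and 0 for the interaction. Over all genes, that fit called 1906 higher and 1808 lower in chow and 1763 and 1634 in HFD. Hyou1 passed in both diets, and Pdia6 and Sel1l in HFD. The diets share no label number, so for diet the block was the replicate's position in its group, which is not stated to pair libraries. That diet fit called 0 members. Depth limits the rare members most: in HFD 0 h replicate 3, Trib3 had 7 counts and Asns 15.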
